A study of Homo sapiens with 12 samples.

Results

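The genes described here are 9 that import long-chain fatty acids into mitochondria and oxidise them: CPT1A, CPT2, HADHA, HADHB, ACAA2, DECR1, ECI1, ETFA and ETFDH. They were taken by name, as steps of 1 pathway. A gene was read from the probe sets that the array annotation gives to that gene alone, and where a gene has several, the brightest on average over the 12 arrays leads. All 9 genes have such a probe set that passed the filter on low values, among 10966 genes that did. The 9 genes have 18 probe sets between them, of which 16 passed.

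The RNA came from HK-2, an immortalized line of human proximal tubular epithelium from the kidney. Cells received Nnm, as the labels name the compound, or served as control, for 24 h or 48 h, with 3 arrays in each of the 4 groups. All labels, those of control included, carry the letters hd, which the labels do not spell out. The dose, the identity of the compound and what the control cells received are not given in the sources used here. The labels call the arrays biological replicates but do not say whether they came from separate cultures, so p-values measure the spread between these samples. The number of arrays limits the precision, and there are 8 residual degrees of freedom. Each control group belongs to its own time.

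Long-chain fatty acids enter mitochondria as carnitine esters. CPT1A on the outer membrane makes the ester, a carrier takes it across the inner membrane, and CPT2 turns it back into an acyl-CoA. The acyl-CoA is then shortened in a repeating cycle of dehydrogenation, hydration, a further dehydrogenation and thiolytic cleavage. HADHA and HADHB are the subunits of the mitochondrial trifunctional protein, which carries out the last steps of the cycle on long chains, and ACAA2 is a thiolase for shorter ones. DECR1 and ECI1 prepare unsaturated acyl-CoAs for the cycle. Electrons from the first dehydrogenation pass to the electron transfer flavoprotein, whose alpha subunit is ETFA, and from there through ETFDH to ubiquinone. Proximal tubule cells of the kidney are known for their reliance on this pathway. Peroxisomes run a similar cycle, with their own enzymes, on very long and branched chains.

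The promoters of the 3 genes on which the results at 48 h turn most are shown first. RefSeq promoter windows, on GRCh38.p14, run from 250 bases before to 50 bases after the listed start and were found for 7 of the 9 genes. HADHA (chr2:26244583-26244882, minus strand) and HADHB (chr2:26244689-26244988, plus strand) face each other head to head, with 307 bases between their listed starts. Their windows share 194 bases, chr2:26244689-26244882, which are in capitals here, read on opposite strands. The last window is that of ETFA (chr15:76311420-76311719, minus strand), with CCAAT in capitals on either strand.
HADHA: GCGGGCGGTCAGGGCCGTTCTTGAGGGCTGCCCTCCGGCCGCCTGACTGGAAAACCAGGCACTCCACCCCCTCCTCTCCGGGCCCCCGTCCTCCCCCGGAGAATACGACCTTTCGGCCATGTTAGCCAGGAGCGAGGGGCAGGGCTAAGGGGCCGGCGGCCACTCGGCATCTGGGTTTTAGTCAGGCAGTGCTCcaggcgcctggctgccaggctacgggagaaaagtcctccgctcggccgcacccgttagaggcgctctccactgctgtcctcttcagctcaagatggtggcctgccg
HADHB: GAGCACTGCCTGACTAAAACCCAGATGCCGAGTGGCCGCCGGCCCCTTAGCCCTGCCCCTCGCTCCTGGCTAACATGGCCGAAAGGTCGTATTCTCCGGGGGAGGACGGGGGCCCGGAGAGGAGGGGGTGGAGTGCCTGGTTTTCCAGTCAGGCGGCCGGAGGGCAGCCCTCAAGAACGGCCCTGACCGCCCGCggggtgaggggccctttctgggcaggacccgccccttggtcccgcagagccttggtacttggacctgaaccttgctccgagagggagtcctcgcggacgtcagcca
ETFA: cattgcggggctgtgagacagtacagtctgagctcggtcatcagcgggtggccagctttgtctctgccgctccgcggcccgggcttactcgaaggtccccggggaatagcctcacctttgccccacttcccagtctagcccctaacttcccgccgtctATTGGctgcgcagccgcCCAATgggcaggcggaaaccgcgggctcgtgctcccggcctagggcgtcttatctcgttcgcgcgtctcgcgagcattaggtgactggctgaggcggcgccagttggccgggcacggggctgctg
The letters of 7 motifs were searched on both strands of the 7 windows. GGGCGG lay in 5 of them, CPT2, ECI1, ETFA, HADHA and HADHB, beside 45.0% of all 35116 windows of the same length in the table. The HADHA match, 248 bases before its start, is the same site as the HADHB match 64 bases before its start. That site lies in the shared bases, so these windows are not separate finds. CCAAT lay in 1, ETFA, with first bases 92 and 75 bases before the start, beside 34.6% of all windows. In ETFA the GGGCGG match, on the other strand 79 bases before the start, overlaps the nearer CCAAT. The motifs AAGGTCA (3.92% of all windows), CACGTG (7.26%), TGATGCAA (0.866%), the direct repeat of AGGTCA read by PPAR receptors (0.0228%) and the palindrome of the nuclear respiratory factor (1.24%) lay in none of the 7. A match is a description of letters in this window.

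On the arrays as a whole, the treated replicates did not behave alike. The arrays of Nnm replicate 2 correlated with the control arrays at a mean of 0.974 at 24 h and 0.977 at 48 h, and with the other Nnm arrays at 0.938 and 0.947. For Nnm replicates 1 and 3 it was the other way round, with 0.922 to 0.934 against control and 0.964 to 0.97 against other Nnm arrays. Values are therefore given for each array, and the main results also without both Nnm arrays numbered 2. Of 9 proximal tubule or renal epithelial markers with a probe set of their own, only PAX8 passed the filter, at a mean between 10.74 and 11.34 in the 4 groups. GGT1, ANPEP, LRP2 and CUBN did not pass it. The general epithelial markers KRT8, KRT18, KRT19, EPCAM and CDH1 all passed, but few defining proximal tubule transcripts did. Markers of fibroblasts (3 of 7 passed), endothelium (1 of 5), podocytes (2 of 4) and the distal nephron (0 of 5) gave no call at either time, nor did the general epithelial markers. The fibroblast markers that passed, DCN, LUM and COL1A1, had control means of 12.19, 10.35 and 8.83 at 24 h. Those of the general epithelial markers ran from 7.03 (CDH1) to 13.09 (KRT18), so these markers do not single out 1 cell type. In bulk RNA, fewer cells of a type and less RNA per cell cannot be told apart.

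At 24 h of Nnm, none of the 9 genes passed the test at an adjusted p of 0.05 by limma on its lead probe set. ACAA2 passed on its second probe set (change 0.85, adjusted p = 0.0386). On the lead probe sets 1 gene (ECI1) had an unadjusted p under 0.05, as had 35.8% of all probe sets. Over all 22829 probe sets tested, 14.7% were called at 24 h. The median change of the 9 genes was -0.22 on the log2 scale, with 6 below 0, beside -0.01 over all probe sets, of which 50.7% were below 0. At 48 h HADHA and ETFA fell and none rose, 2 of 9, where 10.2% of all probe sets were called and 4.44% were called lower. On the lead probe sets 8 of the 9 genes were below control, among them ACAA2 by only 0.08 and at 0.74 above control on its second probe set, and CPT1A was above it, with a median change of -0.51 beside 0.005 over all probe sets. Here 4 of the 9 had an unadjusted p under 0.05, as had 30.6% of all probe sets. In the fit blocked on replicate number 1 of the 9 genes was called at 24 h and 4 at 48 h, all lower, where 29.3% and 22.1% of all probe sets were called.

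**Figure D1:**
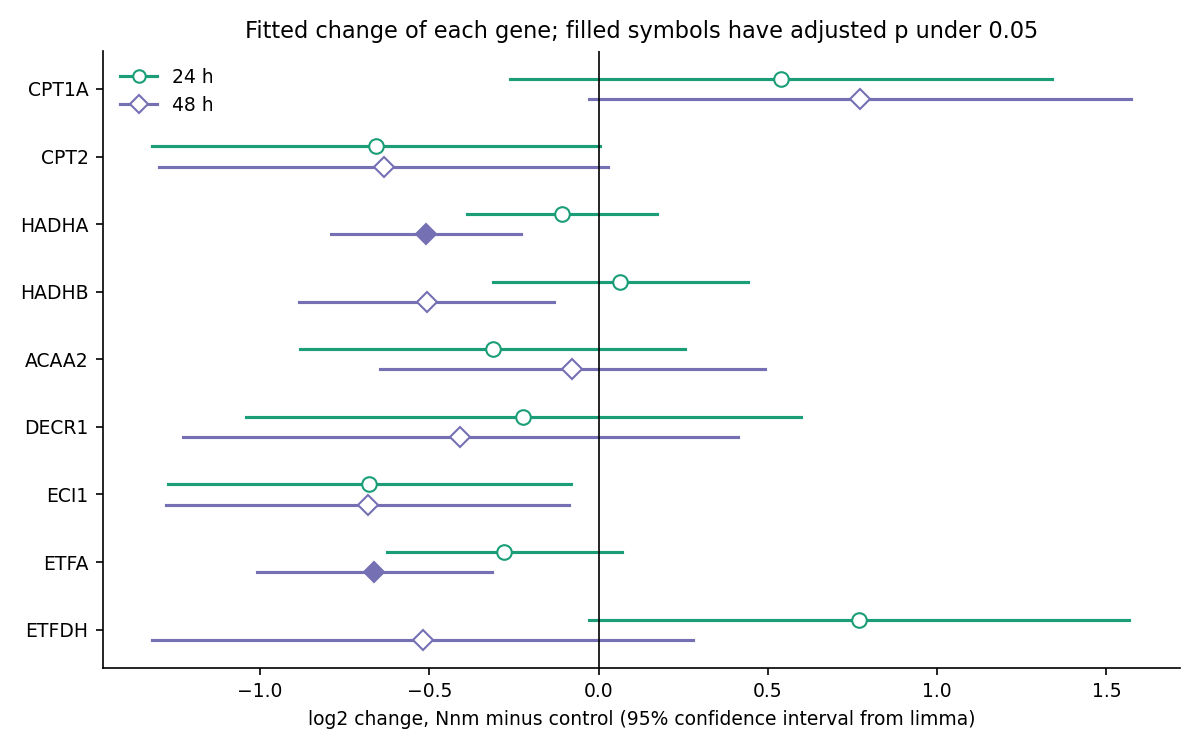
Fitted log2 change, Nnm minus control, of the lead probe set of each gene at 24 h (circles) and 48 h (diamonds), with 95% confidence intervals from limma and 3 arrays a group. Only HADHA (-0.51) and ETFA (-0.66) at 48 h are filled, for an adjusted p under 0.05. CPT1A lies above 0 at both times, and ETFDH lies at 0.77 at 24 h and -0.52 at 48 h.

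Import was measured at its outer and inner steps, CPT1A and CPT2. On the lead probe sets, Nnm replicates 1 and 3 were above control for CPT1A and below it for CPT2. No change of either gene passed the test. CPT1A, the regulated entry step, stood at 7.68, 7.81 and 7.30 (log2) in control replicates 1 to 3 at 24 h and at 8.47, 7.80 and 8.14 with Nnm. At 48 h the control values were 7.65, 7.98 and 7.78 and the Nnm values 9.23, 7.60 and 8.89. Nnm replicates 1 and 3 were above every control array of their time, and replicate 2 lay among the controls at 24 h and just below them at 48 h. The change was 0.54 (SE 0.36, adjusted p = 0.308) at 24 h and 0.77 (SE 0.36, adjusted p = 0.177) at 48 h, so neither passed. In the order of group means, both controls were lowest (7.60 ± 0.26 at 24 h and 7.80 ± 0.16 at 48 h, SD, n = 3), followed by Nnm at 24 h (8.14 ± 0.34) and at 48 h (8.57 ± 0.86), and no neighbours in that order lay further apart than the larger of their SDs.

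A CPT1A probe set at a low level, 210688_s_at, passed the filter through only 3 arrays above log2 4, a control array at 4.18 and Nnm 48 h replicates 1 and 3 at 5.38 and 4.70. Its change was -0.20 at 24 h and 0.92 at 48 h (adjusted p = 0.74 and 0.135). The other 2 CPT1A probe sets stayed under the filter.

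CPT2, the inner-membrane partner, stood at 7.39, 7.23 and 7.41 in control at 24 h and at 6.56, 7.32 and 6.18 with Nnm. At 48 h the values were 7.59, 7.57 and 7.46 in control and 6.58, 7.51 and 6.63 with Nnm. Nnm replicates 1 and 3 were below every control array, while replicate 2 lay within the control range at both times. The change was -0.66 (SE 0.30, adjusted p = 0.142) at 24 h and -0.64 (SE 0.30, adjusted p = 0.179) at 48 h. The second CPT2 probe set, 204263_s_at, gave -0.80 and -0.76 (adjusted p = 0.0918 and 0.122), and at 48 h its Nnm and control arrays did not overlap.

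**Figure D2:**
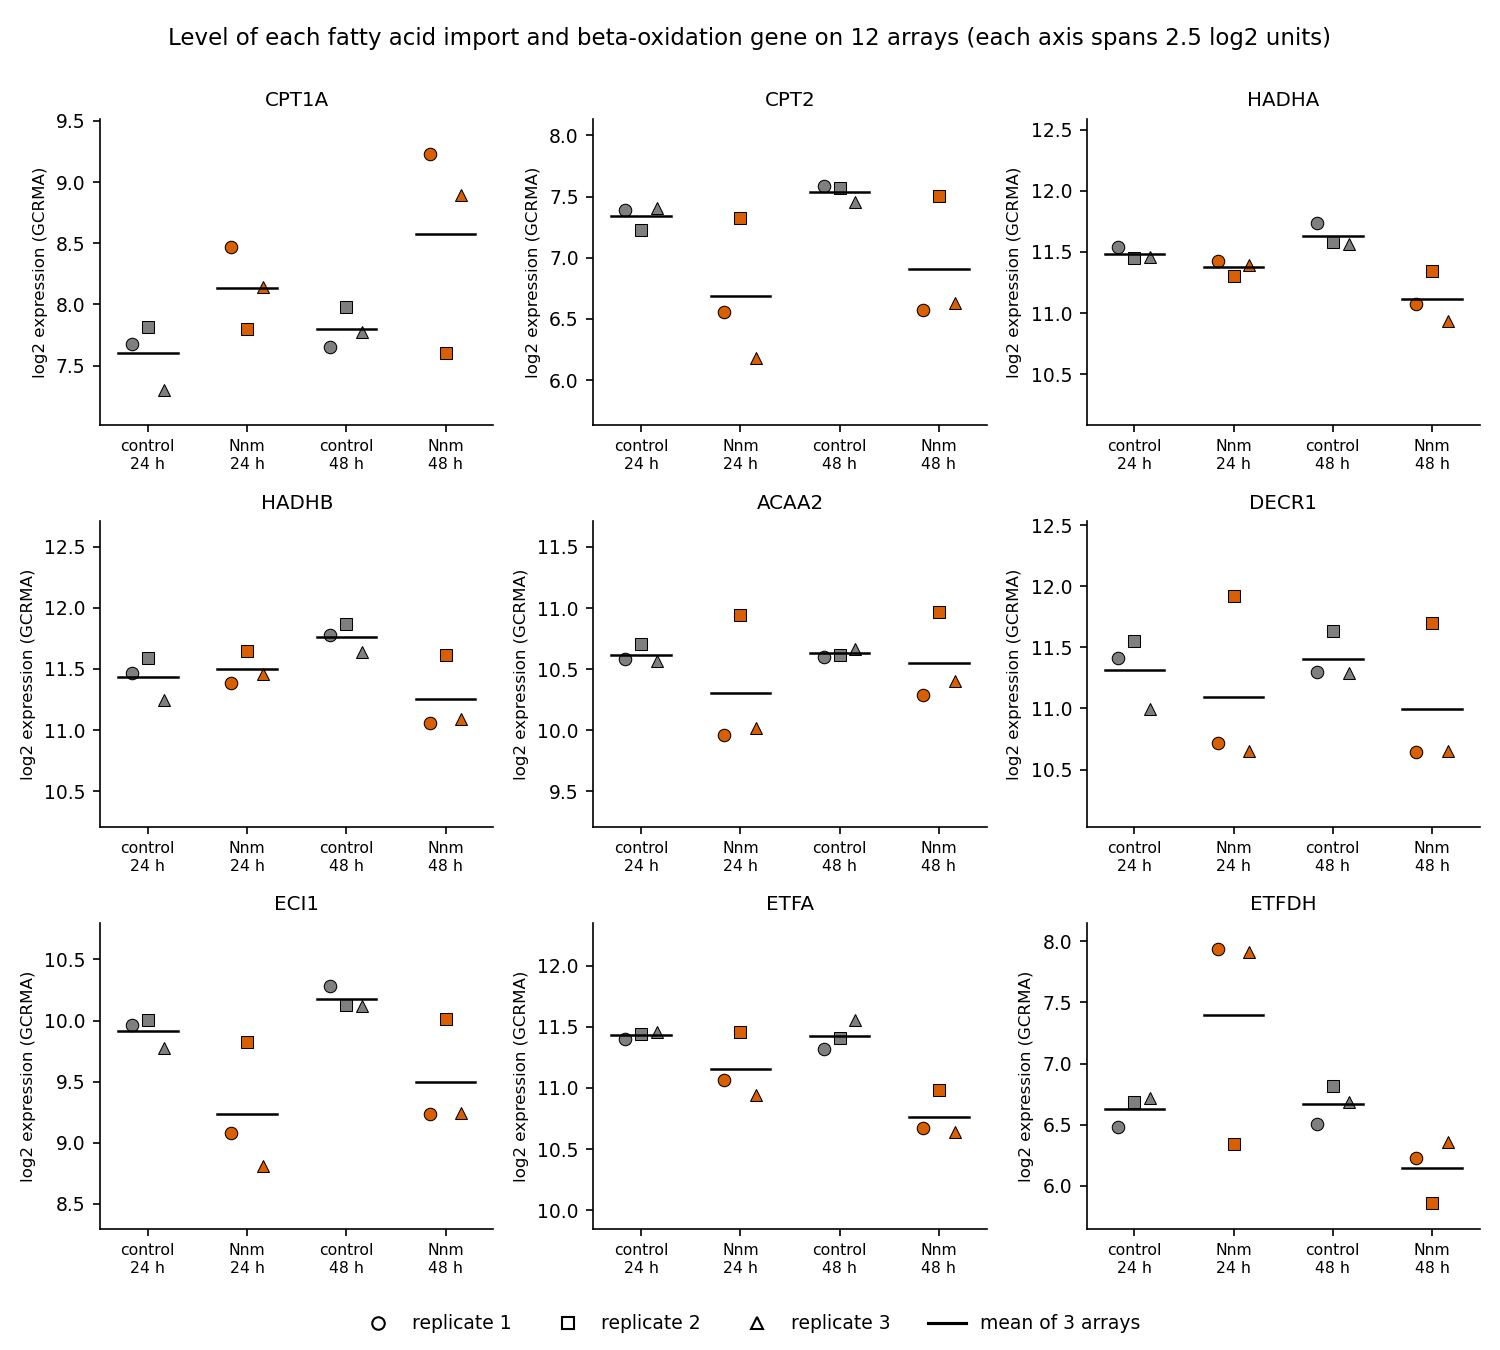
Log2 expression of the 9 genes on each of the 12 arrays, by group, with replicates 1, 2 and 3 as circles, squares and triangles and a bar at each group mean. In CPT1A, Nnm replicates 1 and 3 lie at 8.14 to 9.23 and replicate 2 at 7.80 and 7.60. In HADHA and ETFA all 3 Nnm arrays at 48 h lie below all 3 controls.

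Of the trifunctional protein, the alpha subunit gene HADHA fell at 48 h. Control arrays at 48 h read 11.74, 11.58 and 11.56 and Nnm arrays 11.07, 11.34 and 10.94, so all 3 Nnm arrays, replicate 2 included, were below all 3 controls. The change was -0.51 (SE 0.13), 1.42-fold lower, with an adjusted p of 0.0346. With 1 of the 12 arrays left out in turn the direction held in all 12 fits, and the call in 3 (adjusted p from 0.00534 to 0.133). At 24 h the arrays read 11.54, 11.45 and 11.46 in control and 11.42, 11.30 and 11.39 with Nnm. The 24 h groups also did not overlap, but the change of -0.11 (SE 0.13) had an adjusted p of 0.572. The control mean was 11.48 ± 0.05 (SD, n = 3) at 24 h and 11.63 ± 0.10 at 48 h.

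HADHA has 3 probe sets, and all 3 fell at 48 h. The others, 208629_s_at and 208630_at, changed by -0.49 and -0.46 with adjusted p of 0.03 and 0.0258. At 24 h they changed by -0.20 and -0.21 (adjusted p = 0.24 and 0.183), with no overlap between groups in either. The 3 probe sets read the same RNA on the same arrays and are not independent samples.

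HADHB, the beta subunit, showed the same size of change at 48 h without passing the test. Control arrays read 11.78, 11.86 and 11.64 and Nnm arrays 11.06, 11.61 and 11.09, with every Nnm array below every control and replicate 2 just below the lowest. The change was -0.51 (SE 0.17, 1.42-fold), with an adjusted p of 0.0789, or 0.0225 in the fit blocked on replicate number. At 24 h the arrays overlapped, at 11.47, 11.59 and 11.24 in control and 11.39, 11.65 and 11.46 with Nnm (change 0.06, SE 0.17, adjusted p = 0.817). The HADHB control mean was 11.43 at 24 h and 11.76 at 48 h, without overlap (change 0.33, adjusted p = 0.669 by limma). The Nnm mean was 11.50 and 11.25, so the difference at 48 h includes a higher control. Over the 12 arrays HADHA and HADHB correlated at r = 0.776. The arrays share the treatment and the time, so this is a description.

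ACAA2, the thiolase, gave different answers from different probe sets. On the lead probe set, 202003_s_at, control arrays at 24 h read 10.58, 10.71 and 10.56 and Nnm arrays 9.96, 10.94 and 10.02. At 48 h they read 10.60, 10.62 and 10.67 in control and 10.29, 10.96 and 10.40 with Nnm. Replicates 1 and 3 were below every control and replicate 2 above every control, at both times. The changes of -0.31 (SE 0.26, adjusted p = 0.41) and -0.08 (SE 0.26, adjusted p = 0.867) did not pass.

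On probe set 202002_at, ACAA2 was instead higher with Nnm. Control arrays at 24 h read 6.36, 6.65 and 6.56 and Nnm arrays 7.34, 7.77 and 7.02, without overlap, for a change of 0.85 (SE 0.23, adjusted p = 0.0386) that passed the test. At 48 h control arrays read 7.08, 6.37 and 6.72 and Nnm arrays 7.20, 7.74 and 7.45 (change 0.74, SE 0.23, adjusted p = 0.0669). Replicate 2 was here the highest Nnm array at both times. The remaining probe set, 241114_s_at, was lower, by -1.02 and -1.39 (adjusted p = 0.272 and 0.167), with Nnm replicate 2 at 5.60 and 5.80 and the other Nnm arrays between 2.76 and 4.46. No single direction can be given for ACAA2 from these probe sets.

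**Figure D3:**
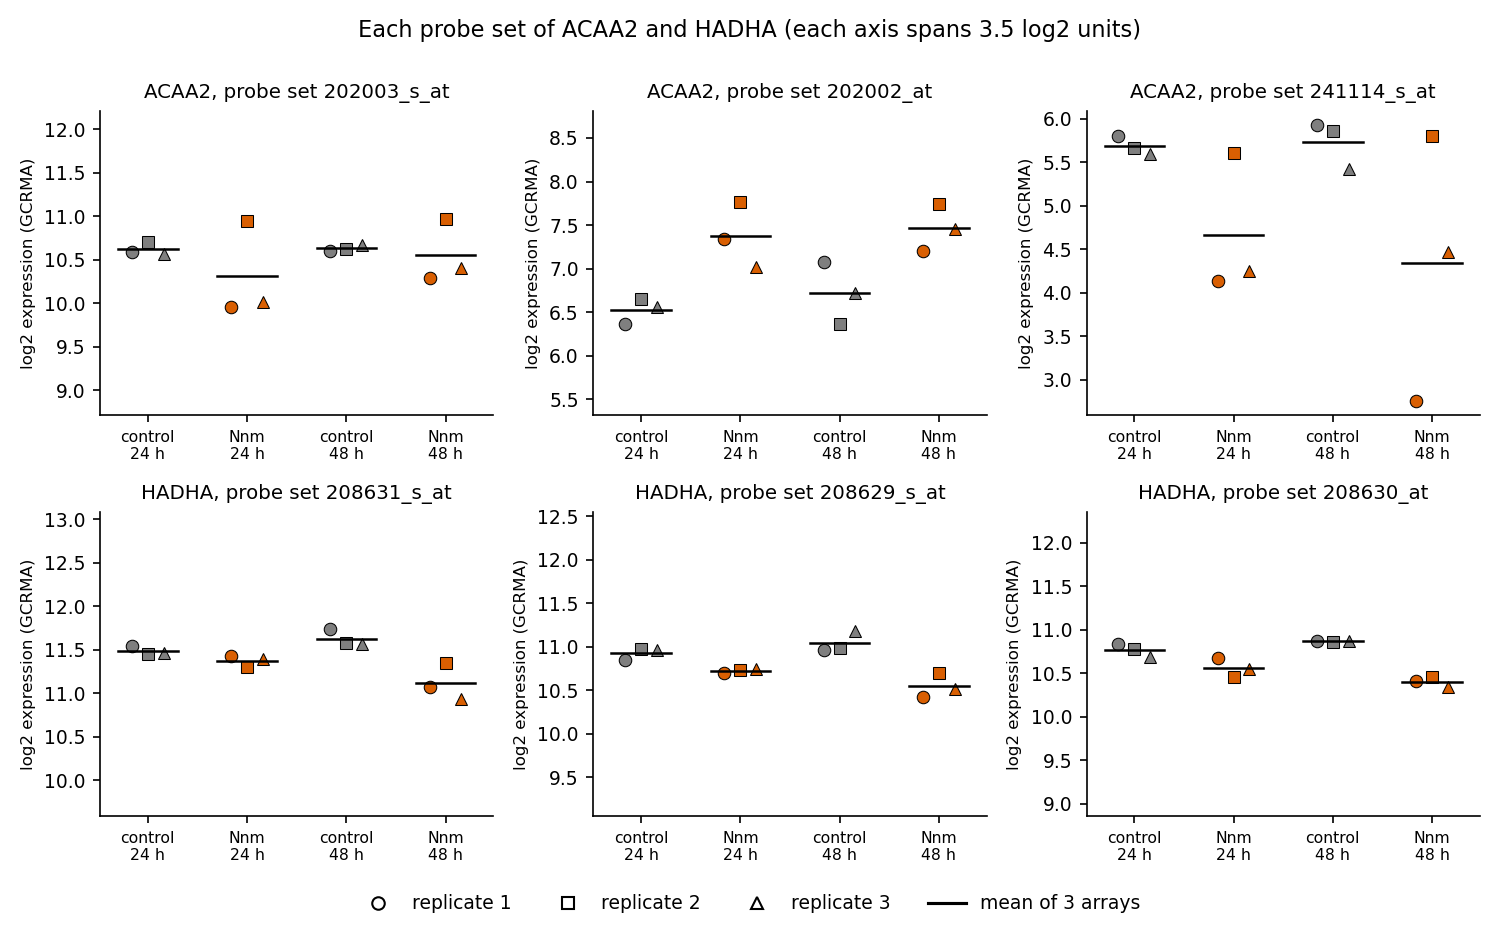
Log2 expression on each array for the 3 probe sets of ACAA2 (top row) and of HADHA (bottom row), by group, with a bar at each mean; every vertical axis spans the same log2 range. The ACAA2 probe sets disagree, with Nnm means above control only in 202002_at (7.38 against 6.52 at 24 h), while in the 3 HADHA probe sets all Nnm arrays at 48 h lie below all controls.

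DECR1 and ECI1, the auxiliary enzymes for unsaturated chains, were low in Nnm replicates 1 and 3. DECR1, the dienoyl-CoA reductase, read 11.41, 11.55 and 10.99 in control at 24 h and 10.71, 11.92 and 10.66 with Nnm. At 48 h it read 11.30, 11.63 and 11.29 in control and 10.65, 11.70 and 10.65 with Nnm. Nnm replicate 2 was the highest array of its time in both, and replicates 1 and 3 were the lowest. The changes were -0.22 (SE 0.37, adjusted p = 0.701) and -0.41 (SE 0.37, adjusted p = 0.482).

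ECI1, the enoyl-CoA isomerase, read 9.97, 10.00 and 9.78 in control at 24 h and 9.08, 9.82 and 8.81 with Nnm. At 48 h it read 10.28, 10.13 and 10.12 in control and 9.23, 10.01 and 9.24 with Nnm. All 3 Nnm arrays were below all controls at 48 h, whereas at 24 h replicate 2 lay within the control range. On the lead probe sets its change of -0.68 (SE 0.27) was the most negative of the 9 genes at both times. The adjusted p by limma was 0.103 and 0.119, or 0.0422 and 0.0488 in the fit blocked on replicate number. ECI1 and CPT2 were the 2 most alike of the 9 genes over the 12 arrays (r = 0.976).

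Electron transfer was represented by ETFA, which fell at 48 h, and ETFDH. For ETFA, control arrays at 48 h read 11.32, 11.41 and 11.56 and Nnm arrays 10.68, 10.98 and 10.64. Every Nnm array was below every control, replicate 2 included, at 0.45 below the control mean against 0.75 and 0.79 for replicates 1 and 3. The change was -0.66 (SE 0.16), 1.58-fold lower, with an adjusted p of 0.0292. With 1 array left out in turn the call held in 7 of 12 fits (adjusted p from 0.00823 to 0.113). At 24 h control arrays read 11.40, 11.44 and 11.46 and Nnm arrays 11.06, 11.46 and 10.94, so replicate 2 stood with the controls and the change of -0.28 (SE 0.16) had an adjusted p of 0.225.

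ETFDH, the ubiquinone oxidoreductase, had the largest difference between the times of the 9 genes. At 24 h control arrays read 6.48, 6.68 and 6.72 and Nnm arrays 7.94, 6.34 and 7.91, with replicates 1 and 3 far above control and replicate 2 below it. At 48 h control arrays read 6.50, 6.82 and 6.68 and Nnm arrays 6.22, 5.86 and 6.36, all below control with replicate 2 the lowest. The changes were 0.77 (SE 0.36, adjusted p = 0.152) and -0.52 (SE 0.36, adjusted p = 0.354). The second probe set, 205530_at, gave 0.89 and -0.22 (adjusted p = 0.107 and 0.72), and at 48 h its Nnm and control arrays overlapped. The difference between the Nnm effects at 48 h and 24 h was -1.29 (SE 0.51, unadjusted p = 0.0289, adjusted p = 0.78 by limma), so it did not pass.

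For all 9 genes that difference between times was tested, and 0 were called, as over all probe sets (0%). At an unadjusted p under 0.05 there were 3 of 9, HADHA (-0.40), HADHB (-0.57) and ETFDH, where 6.21% of all probe sets reached it. An effect called at 48 h and not at 24 h is thus not shown to differ between the times. Control cells at 48 h against control cells at 24 h gave 0 calls by limma, 0% of all probe sets, and none of the 9 genes had an unadjusted p under 0.05, beside 8.04% of all probe sets. The median change between the controls was 0.14, with 8 of 9 genes above 0 and a range of -0.007 (ETFA) to 0.33 (HADHB).

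By whether groups overlap on the lead probe sets, HADHA alone of the 9 lay wholly below control at 24 h, where 18.9% of all probe sets did. At 48 h the count was 5 of 9, HADHA, HADHB, ECI1, ETFA and ETFDH, beside 16.1% of all probe sets. It depends on the probe set. On second probe sets at 48 h, ETFDH (205530_at) overlapped with control and CPT2 (204263_s_at) lay wholly below it. On the lead probe sets none of the 9 lay wholly above control at either time, beside 18.4% and 18.7%. On its second probe set, 202002_at, ACAA2 lay wholly above control at both times. In the 5 genes counted as wholly below control at 48 h, Nnm replicate 2 was below the control mean on the lead probe set. The distance was 0.28 in HADHA, 0.15 in HADHB, 0.17 in ECI1, 0.45 in ETFA and 0.81 in ETFDH.

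**Figure D4:**
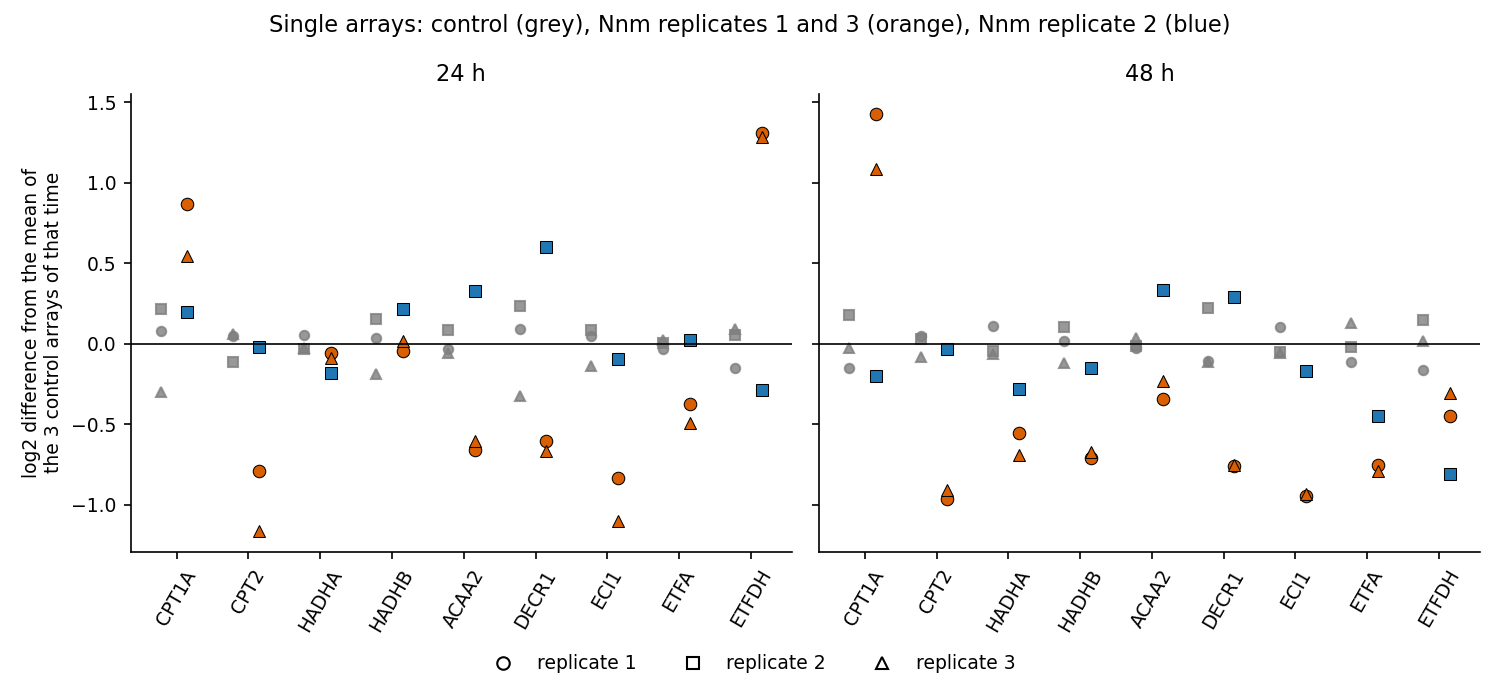
Each array's log2 distance from the mean of the 3 control arrays of its time, for the 9 genes at 24 h and 48 h, with controls in grey, Nnm replicates 1 and 3 in orange and Nnm replicate 2 in blue. Replicate 2 lies near 0 for CPT2 (-0.02 and -0.03), while replicates 1 and 3 lie between -1.16 and -0.79. HADHA and ETFA at 48 h have all Nnm arrays below 0.

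The median over the 9 genes of the distance from the control mean was -0.37, 0.02 and -0.49 in Nnm replicates 1 to 3 at 24 h and -0.71, -0.17 and -0.69 at 48 h. Control arrays lay between -0.06 and 0.09. In Nnm replicate 2 at 48 h 7 of the 9 genes were below the control mean, as against 8 of 9 in replicates 1 and 3. Without both Nnm arrays numbered 2, 7 of the 9 genes passed at 24 h, 2 higher (CPT1A and ETFDH) and 5 lower, where 47% of all probe sets were called. At 48 h all 9 passed, with CPT1A higher and 8 lower, where 42.1% were called. The difference between the times then passed for 3 of 9, HADHA, HADHB and ETFDH, where 11.2% were called. Since those arrays were set aside for lying near the controls, these calls are a description and no test. The sizes without them were 0.71 and 1.26 for CPT1A, -0.98 and -0.94 for CPT2, -0.97 and -0.94 for ECI1, and 1.30 and -0.38 for ETFDH, at 24 h and 48 h. For HADHA and ETFA at 48 h they were -0.62 and -0.77.

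The 9 genes did not share 1 pattern over the 12 arrays. CPT2, ACAA2, DECR1 and ECI1 had pairwise correlations between 0.804 and 0.976, and HADHA correlated with ETFA at 0.78. CPT1A ran against the other genes except ETFDH (0.104), with the lowest value against ETFA (-0.81), and ETFDH ran against ACAA2 (-0.789). Outside the 9, the genes most like the mean of the 9 after scaling, of 10957 compared over 12 arrays, were SIM1 (r = 0.974), TBC1D8B (0.961), LDHB (0.961), PPA2 (0.959) and ATG2B (0.959). LDHB encodes a lactate dehydrogenase subunit and PPA2 the mitochondrial inorganic pyrophosphatase. Their likeness to the 9 was what chose them, and LDHB, for one, read 14.68 on Nnm 24 h replicates 1 and 3 and 15.21 on replicate 2, with controls from 15.06 to 15.24. None of the 5 passed the test, with changes between -1.74 and -0.49 and adjusted p between 0.0921 and 0.133 at 48 h.

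Mitochondrial and peroxisomal oxidation were set side by side as 2 lists drawn from textbook knowledge. The mitochondrial list held the 9 genes, the acyl-CoA dehydrogenases and ECHS1, HADH, ACAT1, ETFB and SLC25A20, of which 19 of 21 were tested. At 24 h 1 of them fell and none rose on the lead probe sets, where 14.7% of all probe sets were called, with a median change of -0.28. At 48 h 4 fell and none rose, where 10.2% were called and 4.44% called lower: HADHA and ETFA, already described, and ACADS and ACADM. Of the 19, 17 were below 0 at 48 h, with a median of -0.52. In the fit blocked on replicate number 4 fell at 24 h and 9 at 48 h, where 29.3% and 22.1% of all probe sets were called. Of 19 peroxisomal genes 13 were tested; ABCD2, ACOX2 and AMACR did not pass the filter on low values, and the others were not analysed here.

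Peroxisomal genes moved in both directions at 24 h, with 3 of 13 called where 14.7% of all probe sets were. CROT, the peroxisomal carnitine octanoyltransferase, rose from 7.49 ± 0.05 to 8.55 ± 0.15 (SD, n = 3), a change of 1.06 (SE 0.17, adjusted p = 0.0112). PHYH, the phytanoyl-CoA hydroxylase of branched chains, rose by 0.73 (SE 0.22, adjusted p = 0.0459), and ACOT8, an acyl-CoA thioesterase, fell by 0.97 (SE 0.29, adjusted p = 0.0462). The median of the 13 was -0.14. At 48 h 0 of the 13 were called by limma, where 10.2% of all probe sets were, with 6 at an unadjusted p under 0.05 (30.6% of all probe sets). With the replicate block 2 of 13 were called, where 22.1% of all probe sets were. They were PHYH (0.67, adjusted p = 0.0282) and catalase, CAT (1.21, adjusted p = 0.0409). The median at 48 h was -0.22, with 8 of 13 below 0.

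The mitochondrial median was lower than the peroxisomal one by 0.14 at 24 h and 0.30 at 48 h, which are descriptions with no test. At 24 h the sign turned with the second probe sets (0.03), and at 48 h the difference ran from -0.48 without the filter to -0.19 without CROT and CAT. By array at 48 h, the mitochondrial median stood at -0.71, -0.32 and -0.76 in Nnm replicates 1 to 3 and the peroxisomal one at -0.27, -0.03 and -0.34. At 24 h the values were -0.54, -0.09 and -0.47 against -0.20, 0.01 and -0.47. The mitochondrial median was thus the lower on every Nnm array at 48 h, and at 24 h replicate 3 gave both nearly the same value.

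**Figure D5:**
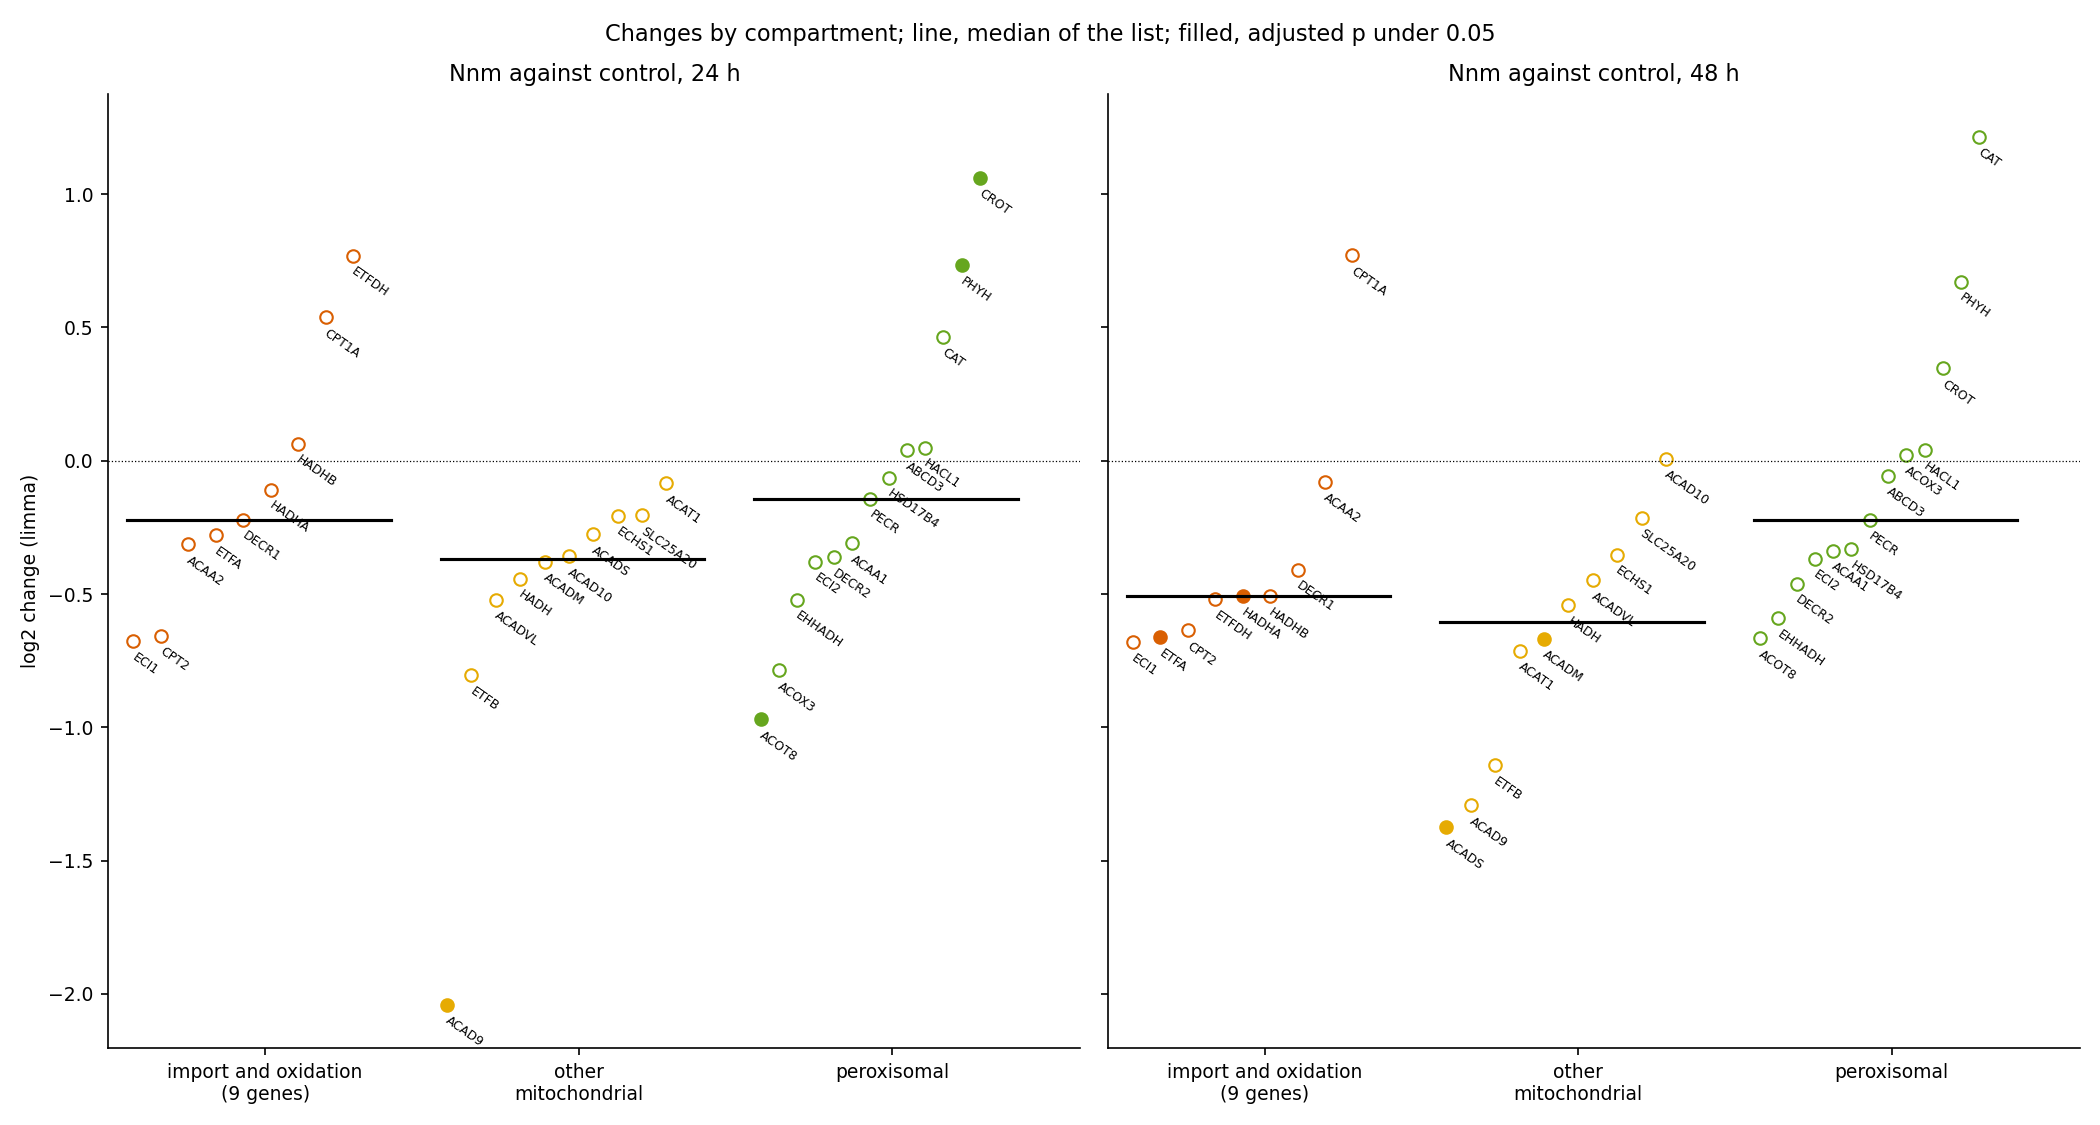
Fitted log2 change, Nnm minus control, for each tested gene of the 9 import and oxidation genes, the other mitochondrial genes and the peroxisomal genes at 24 h (left) and 48 h (right); lines are list medians and filled points have an adjusted p under 0.05. Medians of the 9 genes are -0.22 and -0.51, and those of the peroxisomal genes are -0.14 and -0.22. CROT and PHYH are the filled points above 0 at 24 h.

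Gene by gene, 4 mitochondrial enzymes were set against the peroxisomal enzyme of the same step. HADHA changed by -0.11 and -0.51 at 24 h and 48 h, and EHHADH, the peroxisomal bifunctional enzyme, by -0.52 and -0.59. ACAA2 changed by -0.31 and -0.08 on its lead probe set, but by 0.85 and 0.74 on its second, and the peroxisomal thiolase ACAA1 by -0.31 and -0.34. DECR1 changed by -0.22 and -0.41 and DECR2 by -0.36 and -0.46. ECI1 changed by -0.68 and -0.68 and ECI2 by -0.38 and -0.37. The difference within each pair ran from -0.31 (SE 0.17, ECI1 against ECI2 at 48 h) to 0.41 (SE 0.20, HADHA against EHHADH at 24 h). In exact permutation tests, two-sided, over 3 against 3 arrays, the 8 differences had p between 0.2 and 0.9 (0.4 to 0.9 after Benjamini-Hochberg), where 0.1 is the smallest p this test can give. It could therefore not pass at 0.05, and nothing is read from it about the pairs.

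Around the 9 genes, other steps of supply and oxidation were counted on lists of the same kind. Of the first dehydrogenation, 5 of 7 acyl-CoA dehydrogenases were tested. By limma 1 of 5 was called at 24 h and 2 of 5 at 48 h, where 14.7% and 10.2% of all probe sets were. ACAD9 fell at 24 h by 2.04 (SE 0.53, adjusted p = 0.0322), and ACADS and ACADM fell at 48 h by 1.37 and 0.67 (adjusted p = 0.0131 and 0.0264). The ACADS control mean was 5.86 at 24 h and 6.56 at 48 h, and the Nnm mean 5.58 and 5.18. ACADM at 24 h, at -0.38, had an adjusted p of 0.108, or 0.0499 with the replicate block. Of the other matrix steps 8 of 9 were tested and 0 were called by limma at either time, beside 14.7% and 10.2% of all probe sets. At an unadjusted p under 0.05 there were 2 at 24 h and 4 at 48 h, beside 35.8% and 30.6% of all probe sets. ETFB, the partner subunit of ETFA, changed by -0.80 and -1.14 (adjusted p = 0.107 and 0.0505, and 0.0488 and 0.0207 with the replicate block). ACAT1, the acetoacetyl-CoA thiolase, changed by -0.08 and -0.71 (adjusted p = 0.799 and 0.0512, the latter 0.0105 with the block). Its Nnm means were 11.08 at 24 h and 11.04 at 48 h, and its control means 11.17 and 11.75. ECHS1, the enoyl-CoA hydratase, changed by -0.35 at 48 h (adjusted p = 0.0618, or 0.0372 with the block).

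Among 17 other genes of carnitine transport and acyl-CoA activation, 9 were tested and 2 rose at 24 h, a share to be read beside 14.7% of all probe sets. With the replicate block 2 also fell at 24 h, ACSL1 and ACSL4 (-1.03 and -0.72, adjusted p = 0.0136 and 0.0481), and ACSL1 at 48 h (-0.91, adjusted p = 0.0183). The blocked fit called 29.3% of all probe sets at 24 h and 22.1% at 48 h. SLC27A3, of the fatty acid transport protein family, rose from 4.96 ± 0.20 to 6.46 ± 0.21 at 24 h (SD, n = 3; change 1.51, SE 0.34, adjusted p = 0.0229) and by 1.65 at 48 h (adjusted p = 0.0193). ACSM3, an acyl-CoA synthetase, rose by 1.28 at 24 h (adjusted p = 0.0238) and read 0.14 above control at 48 h (adjusted p = 0.772). Its Nnm mean was 8.89 at 24 h and 8.80 at 48 h, while its control mean was 7.61 and 8.66. That control difference of 1.05 did not pass (adjusted p = 0.442 by limma). For both genes all 3 Nnm arrays at 24 h, replicate 2 included, were above all controls.

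Of 22 regulators of fatty acid oxidation 20 were tested, and at 24 h 3 rose and 2 fell, where 14.7% of all probe sets were called. With the replicate block 8 of 20 were called at 24 h and 3 of 20 at 48 h, where 29.3% and 22.1% of all probe sets were. PPARGC1A, a coactivator of mitochondrial genes, fell from 8.55 ± 0.19 to 6.96 ± 0.98 (SD, n = 3; change -1.59, SE 0.43, adjusted p = 0.0378), and its relative PPRC1 fell by 1.06 (SE 0.18, adjusted p = 0.012). PRKAA2, a catalytic subunit of AMP-activated protein kinase, rose by 1.02 (adjusted p = 0.0172) and the deacetylase SIRT1 by 0.91 (adjusted p = 0.0346). LPIN1, a phosphatidate phosphatase, rose by 0.83 (adjusted p = 0.0106) and is named because the count is small, after its value was seen. At 48 h 0 of 20 were called by limma, where 10.2% of all probe sets were. There 4 of 20 had an unadjusted p under 0.05, a share of the list below the 30.6% of all probe sets. PPARGC1A was then at -0.95 (adjusted p = 0.166) and PRKAA2 at 0.73 (adjusted p = 0.0503, and 0.0326 with the replicate block).

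Targets of the PPAR receptors outside oxidation were tested for 5 of 10 genes, of which 1 rose and 1 fell at 24 h and 2 rose at 48 h, where 14.7% and 10.2% of all probe sets were called. PDK4, the kinase that turns off pyruvate dehydrogenase, rose by 0.91 at 24 h and 1.11 at 48 h (adjusted p = 0.041 and 0.0272). G0S2, an inhibitor of the lipase that releases fatty acids from droplets, rose at 48 h from 8.09 ± 0.62 to 11.99 ± 2.18 (SD, n = 3; change 3.90, SE 0.85, adjusted p = 0.0227), after 2.23 at 24 h (adjusted p = 0.0922, or 0.0354 with the replicate block). HILPDA, a lipid droplet protein, fell by 1.93 at 24 h (adjusted p = 0.0396) and changed by -1.21 at 48 h.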

How the data were processed

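Expression was measured on 12 Affymetrix arrays, 3 in each of 4 groups. The deposited values are log2 expression per probe set; the submitters' processing notes name GCRMA, whose version, as well as the arrays it was run over, are not given in the sources used here. GCRMA brings the arrays to a like distribution, so a shift common to most genes would not appear in these values. Array medians lay between 2.91 and 2.98.

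Probe sets were named from the platform annotation, and only those with a single gene symbol were used. A probe set was tested where at least 3 arrays exceeded log2 4, which left 22829. One limma 3.58.1 model (R 4.3.3) with the 4 groups was fitted over all of them, with Benjamini-Hochberg adjustment and a threshold of 0.05; it was tested on simulated data. The members and lists were chosen with earlier results of these data known. Named are all 9 genes, the genes paired with them, the 5 most alike, and of each other list up to 4 called genes with the largest change, or the 2 with the smallest p where fewer were called; CAT, LPIN1, ECHS1, ACSL1, ACSL4, BDH1, PEX6 and second probe sets were named after their values were seen. Alternatives changed the filter, the scaling, the probe set, the arrays fitted, the variance model and the replicate block.

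Same-numbered arrays of different groups deviated together: over 18 pairs the correlation of their deviations from the group means ran from 0.162 to 0.669, with a median of 0.363, against a median of -0.208 over 36 pairs with different numbers. Deviations within a group cancel out, so a positive median for the same numbers brings a negative one for different numbers. The numbers were taken to pair the samples only in the fit blocked on replicate number. The labels do not state such a pairing, and the calls of the main fit do not use it. Blocked values are given where they change the call of a gene among the 9 or named from the other lists, and otherwise as counts. Scans, dates and cell culture batches were not given in the sources used here.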

Additional observations from a re-analysis of the deposited data

How the results depend on the processing

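The fall of HADHA and ETFA at 48 h kept its direction in every alternative. With 1 array left out their adjusted p by limma ran from 0.00534 to 0.133 and from 0.00823 to 0.113. HADHA passed in 3 of 12 such fits, those without Nnm 24 h replicate 1 or 2 or Nnm 48 h replicate 2. ETFA passed in 7 of 12, and was lost without any 48 h control or without Nnm 48 h replicate 1 or 3. Each of these leaves fewer arrays. With only the 6 arrays of 48 h neither passed (adjusted p = 0.105 and 0.075), and without a filter ETFA did not (0.057).

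The count of the 9 genes called was 2 at 48 h; it was 1 without a filter, 4 with the replicate block, 0 with only the 6 arrays of that time, 7 with array weights, 9 without both Nnm arrays numbered 2, and 0 to 6 with 1 array left out (6 without Nnm 48 h replicate 2, 4 without Nnm 24 h replicate 2). At 24 h it was 0; it was 1 with the second probe set (ACAA2), 1 with the replicate block, 7 with array weights, 7 without both arrays numbered 2, and 0 to 5 with 1 array left out, the 5 without Nnm 24 h replicate 2. The count for the difference between times was 0, against 3 with array weights, 3 without both arrays numbered 2, and 0 to 1 with 1 array left out. Of all probe sets, the replicate block called 29.3% at 24 h and 22.1% at 48 h. Without both Nnm arrays numbered 2 the shares were 47% and 42.1%, and 11.2% for the difference between times. No share is given here for the other alternatives, so their counts alone are no result about the 9 genes.

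The mitochondrial median minus the peroxisomal one at 48 h was -0.30; it was -0.48 without a filter, -0.41 with array weights, -0.44 without both arrays numbered 2, -0.19 with CROT and CAT taken off the peroxisomal list, and -0.44 to -0.27 with 1 array left out. At 24 h it ran from -0.20 to 0.03 over the alternatives other than leaving 1 array out, so it has no settled sign.

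Signs turned for CPT1A at 24 h (-0.20) and ACAA2 at 24 h and 48 h (0.85 and 0.74) with the second probe set. For HADHB at 24 h they turned with array weights (-0.001) and without both arrays numbered 2 (-0.012), and it ran from -0.03 to 0.14 with 1 array left out. ACAA2 at 48 h ran from -0.28 to 0.05 with 1 array left out, above 0 without Nnm 48 h replicate 1 (0.054). Where no construction is named, the cause was not tested. The replicate block changed no other call among the 9 genes than those given for ECI1 and HADHB.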

Other observations

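Ketone body enzymes, which handle a product of fatty acid oxidation, were tested for 4 of 6 genes. OXCT1, which activates ketone bodies for use, fell by 0.56 at 48 h (adjusted p = 0.0314 by limma), from 10.68 ± 0.17 to 10.12 ± 0.13 (SD, n = 3), and changed by 0.06 at 24 h (adjusted p = 0.786). By limma 1 of 4 was called at 48 h, where 10.2% of all probe sets were. At 24 h 0 of 4 were called by limma, where 14.7% of all probe sets were. There 1 of 4 had an unadjusted p under 0.05, beside 35.8% of all probe sets. BDH1 was called at 24 h with the replicate block (-0.48, adjusted p = 0.0446). With that block 29.3% of all probe sets were called at 24 h.

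Peroxisome assembly genes were tested for 11 of 15. PEX10, a ubiquitin ligase of the import machinery, fell by 1.63 at 24 h (adjusted p = 0.0293) from 7.76 ± 0.34 to 6.13 ± 0.91 (SD, n = 3), and PEX19, which binds peroxisomal membrane proteins, fell by 0.63 (adjusted p = 0.0395), so 2 of 11 were called where 14.7% of all probe sets were. With the replicate block 4 of 11 were called at 24 h, where 29.3% of all probe sets were. At 48 h 0 of 11 were called by limma, where 10.2% of all probe sets were. Of the 11, 1 had an unadjusted p under 0.05, beside 30.6% of all probe sets. It was PEX6, which was called with the replicate block (1.28, adjusted p = 0.024), where 22.1% of all probe sets were.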
